A study of Mus musculus with 2 samples.

Results

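The glycolysis and hypoxia response genes are a set of 31 named mouse genes, taken by symbol from the 31053 gene rows of both deposited matrices. All 31 symbols were found, on 32 rows, because Aldoa is listed under 2 identifiers. The row with identifier ENSMUSG00000030695 was used, since the other held 1 UMI (a unique molecular identifier, the tag that marks 1 captured transcript) in the cDC1 matrix and 2 in the cDC2 matrix. By role the set holds 2 glucose transporters, 14 core enzymes of glycolysis, 4 flux regulators and lactate carriers, 3 genes of oxygen sensing and 8 genes that low oxygen is known to induce.

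Glycolysis turns glucose into pyruvate and lactate in the cytosol. Hypoxia-inducible factor 1 (HIF-1) is a transcription factor whose alpha subunit is marked for destruction by prolyl hydroxylases when oxygen is present, and when it persists it raises transcription of glucose transporters, most glycolytic enzymes and a group of stress genes. Dendritic cells are the main antigen-presenting cells of the immune system, and their activation by microbial signals in culture is known to be accompanied by a rise in glucose use.

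There are 2 single-cell RNA libraries, made from the lung of C57BL/6 mice aged 8 to 10 weeks, 1 from cells sorted for XCR1 (the chemokine receptor of conventional type 1 dendritic cells, the cDC1 library) and 1 from cells sorted for CD172a (a marker of type 2, the cDC2 library). No treatment or genetic change is named in the labels, and how many mice were pooled is not stated in the sources used. After filtering, 2574 cells with 35071861 UMIs and 2835 cells with 38613693 UMIs were analysed, at medians of 12866 and 12655 UMIs per cell, and 6 barcodes occurred in both libraries. Levels are in CPM, the UMIs of a gene scaled to a fixed total of UMIs in the summed cells, with exact 95% Poisson intervals, and ratios carry exact conditional binomial intervals. Both kinds of interval cover counting error only. There is 1 library for each sort, so no comparison has a replicate check and none carries a p-value: a gene is called higher or lower at a ratio of 2 or more if it reached 10 CPM on at least 1 side.

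Cells were placed in states by marker genes. Mature cells (78 in the cDC1 and 59 in the cDC2 library) carried Fscn1, the actin-bundling protein of mature dendritic cells. Cells high in Ccr7, the receptor that guides dendritic cells to lymph nodes, but low in Fscn1 numbered 87 and 666, and cycling cells 199 and 251. Cells in no gate are called resting here (2173 and 1412). In resting cells 9 of 9 cDC1 markers and 9 of 10 cDC2 markers were each seen in at least 25% of the cells of their own library. In mature cells the subset markers were lower: the cDC1 list had a median of 10.0 UMIs per 10000 in mature against 28.9 in resting cells of the cDC1 library, and the cDC2 list 3.83 against 36.8 in the cDC2 library. The cDC2 library also held 271 cells high in Cd7 and Plac8, 103 macrophage- or monocyte-like cells and 31 neutrophil-like cells, against 8, 5 and 3 in the cDC1 library.

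The promoters of 4 genes on which the results below turn are shown first, because they carry the short sequence that HIF-1 is known to bind. The motif searched was ACGTG or GCGTG on either strand, so that it can also read CACGT or CACGC. A palindromic CACGTG, which transcription factors of other families also bind, counts as a match on each strand. The windows are RefSeq's on GRCm38, run from 250 bases before to 50 bases after a transcription start, are written along the gene's strand, and have the matches in capitals. Hk2 and Ldha were lower in mature cells, Pfkfb3 was higher in them, and Hilpda differed most between libraries among the stress genes.
Hk2, chr6:82774405-82774704, minus strand: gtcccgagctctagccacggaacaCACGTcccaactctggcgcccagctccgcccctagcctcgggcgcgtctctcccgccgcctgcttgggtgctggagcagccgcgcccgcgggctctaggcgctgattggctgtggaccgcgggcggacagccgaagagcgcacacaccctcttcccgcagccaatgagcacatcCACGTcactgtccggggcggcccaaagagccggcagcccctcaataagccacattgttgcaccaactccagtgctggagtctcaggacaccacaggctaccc
Ldha, chr7:46845554-46845853, plus strand: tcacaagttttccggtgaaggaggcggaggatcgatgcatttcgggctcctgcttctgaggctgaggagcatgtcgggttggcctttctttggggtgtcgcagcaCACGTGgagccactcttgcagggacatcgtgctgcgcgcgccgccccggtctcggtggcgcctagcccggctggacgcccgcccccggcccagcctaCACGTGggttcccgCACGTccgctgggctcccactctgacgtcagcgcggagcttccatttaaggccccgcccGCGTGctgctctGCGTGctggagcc
Pfkfb3, chr2:11502041-11502340, minus strand: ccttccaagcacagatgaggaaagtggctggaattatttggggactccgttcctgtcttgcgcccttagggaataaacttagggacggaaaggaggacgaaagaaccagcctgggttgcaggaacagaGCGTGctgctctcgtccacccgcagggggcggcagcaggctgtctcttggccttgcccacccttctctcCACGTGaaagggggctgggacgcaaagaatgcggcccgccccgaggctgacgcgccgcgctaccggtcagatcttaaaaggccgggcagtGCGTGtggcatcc
Hilpda, chr6:29272376-29272675, plus strand: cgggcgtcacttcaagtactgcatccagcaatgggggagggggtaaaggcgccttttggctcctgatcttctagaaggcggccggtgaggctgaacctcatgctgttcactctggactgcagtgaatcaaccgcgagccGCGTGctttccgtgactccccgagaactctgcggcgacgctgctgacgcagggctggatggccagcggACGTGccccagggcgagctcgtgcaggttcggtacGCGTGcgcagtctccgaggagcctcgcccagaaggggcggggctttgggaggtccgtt

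The Ldha window held 7 matches, 2 of its sites being CACGTG, and the windows of Hk2, Pfkfb3 and Hilpda held 2, 4 and 3. The Pfkfb3 and Hilpda windows shown are the second of 2 listed for each gene, and their first windows held 1 match each. The Ldha window shown is the first of 2, and its second held 2 matches. For each of these genes the window with more matches is the one shown. Of the 31 genes, 28 had a window, and 26 of these had at least 1 match, Gpi1 and Tpi1 being the others. Slc2a3, Bnip3l and Ndrg1 had no window. Counted by window, 32 of 38 (84.2%) held a match, against 43.8% of all 32851 windows in the table. A match describes the letters in a window and was not tested as a binding site. Promoters of Ldha, which fell in mature cells, and Pfkfb3, which rose, both hold it.

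Between the libraries, RNA of the glucose transporters, of a lactate carrier and of 2 stress genes separated the sorts, while that of the core enzymes did not. Both glucose transporters, the lactate carrier Slc16a3, the flux regulator Pfkfb4 and the stress genes Hilpda and Ddit4 passed the 2-fold threshold, all with the higher level in the cDC2 library. None of the 13 measurable core enzymes reached 2-fold in either direction. In all, 26 of the 31 genes reached 10 CPM in a library, 6 were called higher in the cDC2 library and 0 lower. Over all genes, 7.79% were called higher and 5.51% lower.

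Slc2a3 encodes GLUT3, a glucose transporter of high affinity, and lies at chr6:122727809-122801640 (GRCm38). It stood at 14.6 CPM in the cDC1 and 92.5 in the cDC2 library, a ratio of 6.33 (5.77 to 6.96). Its neighbour in role, Slc2a1 (GLUT1, the general transporter, chr4:119108711-119137983), stood at 30.9 and 84.2 CPM. In the cDC1 library Slc2a1 was thus the more abundant of the pair. Over all cells of the cDC2 library Slc2a3 was the higher, but among its resting cells Slc2a1 was at 93.2 CPM (88.9 to 97.7) and Slc2a3 at 91.8 (87.5 to 96.3), with overlapping intervals. The method counts 1 end of each transcript, so that transcript length plays little part when these levels are set side by side. Other differences between genes in how well they are counted were not tested.

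Hilpda codes for a lipid droplet protein that inhibits the lipase ATGL and is strongly induced by low oxygen (chr6:29272488-29275446). It stood at 15.5 CPM in the cDC1 and 87.6 in the cDC2 library, a ratio of 5.67 (5.18 to 6.22). Ddit4 (REDD1, an inhibitor of the growth kinase mTORC1) was at 6.36 and 16.8 CPM, 2.65-fold (2.27 to 3.1). The other 4 measurable hypoxia-induced genes were above 1 but short of the threshold: Ndrg1, a stress-responsive gene linked to differentiation, had a ratio of 1.77, P4ha1, a collagen prolyl hydroxylase, 1.48, Bnip3l, a mitophagy receptor, 1.12, and Ero1l, an oxidase of protein folding, 1.09. The median log2 ratio of the 6 was 0.69, against 0.05 over all genes.

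The core enzymes had a median log2 ratio of 0.06, next to the 0.05 of all genes, and 7 of 13 were above 1. Eno1 (enolase) had the highest ratio at 1.73 (1.66 to 1.79), from 126 to 218 CPM, and Hk2, the inducible hexokinase that traps glucose in the cell, came next at 1.5. Pfkp, a phosphofructokinase, was at 388 CPM in the cDC1 and 258 in the cDC2 library, 1.51-fold lower (1.47 to 1.55). Pgk1, which makes the first ATP of the pathway, was 1.37-fold lower. Ldha, which turns pyruvate into lactate, stood at 286 and 279 CPM. The plot of ratios by role shows the transporters and Hilpda to the right of the 2-fold line and all blue points inside it.

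**Figure D1:**
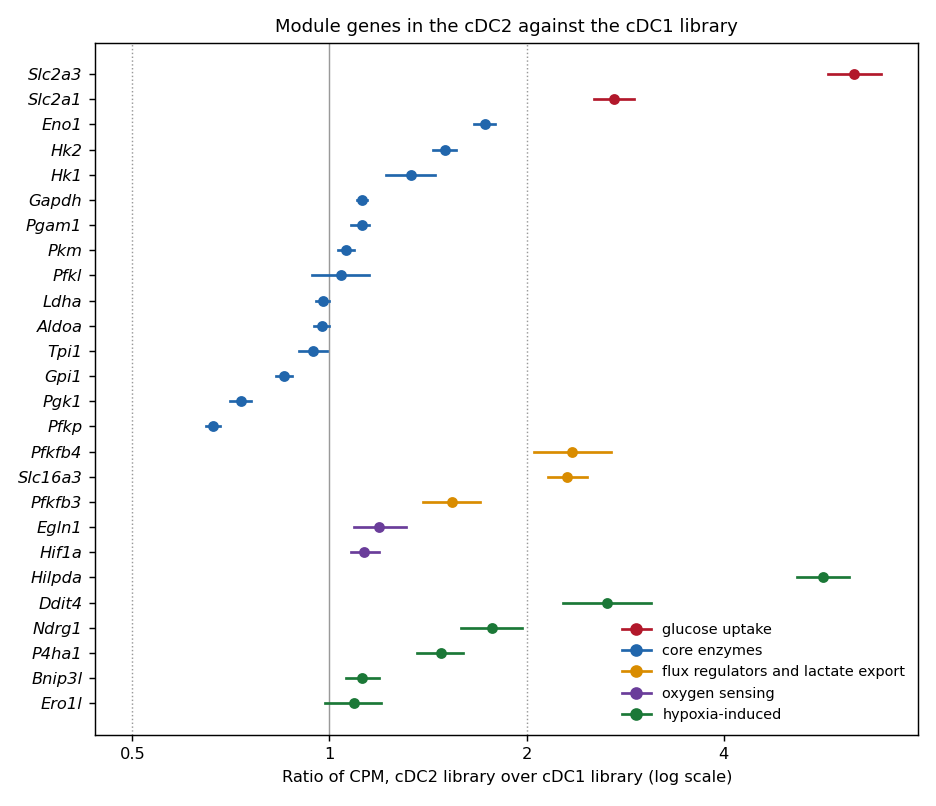
Ratio of CPM in the cDC2 over the cDC1 library for the 26 genes at 10 CPM or more in a library, ordered within roles, on a log axis. Points are ratios and bars exact 95% intervals; solid and dotted lines mark 1 and 2-fold. The 6 called genes lie to the right of the 2-fold line, and Pfkp, at 0.664, lies farthest to the left.

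Of the flux regulators, Pfkfb4 stood at 8.61 and 20.2 CPM (ratio 2.35, 2.05 to 2.69). Pfkfb3 stood at 17.2 and 26.4 CPM. Both enzymes make and remove fructose 2,6-bisphosphate, the strongest activator of phosphofructokinase. Hif1a, the oxygen-controlled subunit of HIF-1, was nearly level, with 92.0 and 104 CPM (ratio 1.13), and so was the oxygen sensor Egln1 (PHD2), with 23.0 and 27.4. The RNA of Hif1a is not what oxygen is known to control. Hk3, Pdk1, Egln3, Bnip3 and Adm were below 10 CPM in both libraries, between 0.0855 and 5.99 CPM, with Egln3 at 3 and 13 UMIs in all.

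The same genes were higher in the cDC2 library when only resting cells were compared, which leaves out cells gated as cycling, mature or non-dendritic. Cells just below a cut can remain. In the cDC2 library 52 cells lay within 1.5 times below the cycling cut and 43 below the macrophage and monocyte cut. There were 192 such cells below the Ccr7 cut and 223 below the Cd7 and Plac8 cut. No Ccr7 UMI was seen in 1909 of 2173 resting cDC1 cells, but in 671 of 1412 resting cDC2 cells. In these cells without Ccr7, Ndrg1 was at 10.1 and 12.8 CPM and Slc2a3 at 11.2 and 82.8. How far Ccr7 carried the resting ratios was not tested. Among resting cells 7 of 26 genes were called higher and 0 lower, against 8.66% and 5.91% of all genes. The 7 were the former 6 and Pfkfb3, at 11.7 and 25.3 CPM (ratio 2.16, 1.87 to 2.49). Slc2a3 had a ratio of 7.60 (6.77 to 8.56) and Hilpda 5.62 (5.02 to 6.32) among resting cells. Cells with at least 1 Hilpda UMI made up 5.18% of cDC1 and 23.8% of cDC2 resting cells after each cell was thinned to 5000 UMIs (10.3% and 40.9% without thinning, at medians of 12593 and 12612 UMIs). The median of the dissociation and heat-shock genes was 78.5 and 77.6 UMIs per 10000 in resting cells of the 2 libraries. Of the 7 ratios, that of Pfkfb3 missed 2-fold under an alternative, at a log2 ratio of 0.98 with the mean of per-cell CPM, and Ddit4 was too low to be counted at a minimum of 20 CPM.

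Among related genes outside the set, 1 of 8 measurable isozymes and transporters was called higher in the cDC2 library, Slc2a6, a glucose transporter of endosomes and lysosomes, at 17.9 and 44.9 CPM. Of 12 other hypoxia pathway genes, 1 was called higher: Vegfa, the vascular growth factor, at 3.71 and 29.2 CPM (ratio 7.88, 6.57 to 9.52). Of 7 pentose phosphate genes, 1 was called higher, G6pdx, the enzyme of the first step, at 17.7 and 38.0. Of 19 genes of the citric acid cycle and 23 of oxidative phosphorylation, 0 were called in either direction. The shares of all genes called between the libraries were 7.79% higher and 5.51% lower.

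Between mature and resting cells, genes of the set went opposite ways. Pfkfb3 and Ndrg1 were higher in mature than in resting cells of both libraries, while Slc2a1 and Ldha were lower in both. Of the core enzymes, 5 of 13 were called lower and 0 higher in the cDC1 library, and 4 of 13 lower and 0 higher in the cDC2 library. Over the whole set, 2 of 24 measurable genes were called higher and 6 lower in the cDC1 library, where 15.2% of all genes were called higher and 15.2% lower. In the cDC2 library 3 of 27 were called higher and 6 lower, against 14.1% and 10.1% of all genes. Mature cells differ from resting cells in many genes, and the share of the set called higher lay below these backgrounds while the share called lower lay above them. Dissociation and heat-shock genes had medians of 60.6 and 62.4 UMIs per 10000 in mature cells, below the 78.5 and 77.6 of resting cells, and their part in the result was not tested.

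Pfkfb3, whose product has far more kinase than phosphatase activity and so drives phosphofructokinase, lies at chr2:11471433-11554077. Its level was 11.7 CPM in resting, 21.7 in Ccr7-high and 180 in mature cells of the cDC1 library. In the cDC2 library it was 25.3, 22.7 and 223 CPM in the same states. The ratio of mature to resting cells was 15.4 (12.8 to 18.5) and 8.83 (7.34 to 10.6). At a depth of 5000 UMIs a Pfkfb3 UMI was seen in 55.4% of mature and 5.65% of resting cDC1 cells, and in 50.9% and 9.91% of cDC2 cells (69.2%, 12.7%, 69.5% and 21.5% without thinning, at medians of 12140, 12593, 10165 and 12612 UMIs). High levels thus belonged to mature cells of both sorts and not to cells that had Ccr7 without Fscn1.

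Ndrg1 followed with 10.5 CPM in resting and 49.1 in mature cDC1 cells (ratio 4.69, 3.41 to 6.35), and 18.0 and 68.4 in cDC2 cells (3.81, 2.77 to 5.14). Adm, the vasodilator peptide adrenomedullin, was called higher in the cDC2 library alone, at 24.6 against 1.33 CPM (18.5-fold, 9.50 to 35.3). Its 18 UMIs came from 8 of 59 cells, 7 of them from 1 cell, and the ratio was 11.5 without that cell. In mature cDC1 cells Adm had 5 UMIs, too few to be called.

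Ldha, at chr7:46841475-46855627, fell from 298 CPM in resting to 77.5 in mature cDC1 cells, 3.84-fold (3.08 to 4.86), and from 277 to 129 in cDC2 cells, 2.15-fold (1.75 to 2.67). Hk2 fell 4.74-fold (3.25 to 7.21) in the cDC1 library, from 126 to 26.5 CPM. In the cDC2 library Hk2 was at 200 and 127 CPM, short of the threshold. The cDC1 losses included Pfkp (401 to 173 CPM), Pgam1, a phosphoglycerate mutase (203 to 90.3), and Gpi1, the isomerase after hexokinase (296 to 144). The cDC2 losses included Eno1 (217 to 104 CPM), Hk1, the constitutive hexokinase (35.9 to 13.7), and Pfkl, a phosphofructokinase (20.6 to 9.58, from 7 UMIs).

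Slc2a1 fell 4.45-fold (2.15 to 11.1) in the cDC1 library, from 30.6 to 6.87 CPM, and 3.41-fold (2.20 to 5.59) in the cDC2 library, from 93.2 to 27.4. Slc2a3 did not reach 2-fold in either, with 12.1 and 11.8 CPM in resting and mature cDC1 cells and 91.8 and 52.0 in cDC2 cells. Hilpda fell 3.91-fold (2.32 to 7.17) in the cDC2 library, from 74.9 to 19.2 CPM, where its 14 UMIs came from 5 cells. With mature cells chosen by the summed marker list in place of Fscn1 alone, the Hilpda log2 ratio was -0.19 in place of -1.97, and Pfkl moved from -1.10 to -0.24. In the cDC1 library Hilpda was at 13.3 and 7.85 CPM.

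Not all enzymes were lower. Aldoa, the main aldolase, was at 277 and 389 CPM in resting and mature cDC1 cells (ratio 1.40, 1.27 to 1.55) and at 272 and 242 in cDC2 cells. Gapdh was at 704 and 855 CPM in the cDC1 and at 760 and 750 in the cDC2 library. The median log2 ratio of the core enzymes was -0.72 and -0.59 in the 2 libraries, against 0.00 and 0.11 over all genes, and that of the hypoxia-induced genes was -0.33 (5 genes) and -0.36 (7 genes). Summed over all 14 core enzymes, resting cells had 2966 and 2962 CPM in the cDC1 and cDC2 libraries, and mature cells 2283 and 2251. Hif1a was at 89.5 and 87.3 CPM in resting and mature cDC1 cells and at 109 and 91.7 in cDC2 cells.

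**Figure D2:**
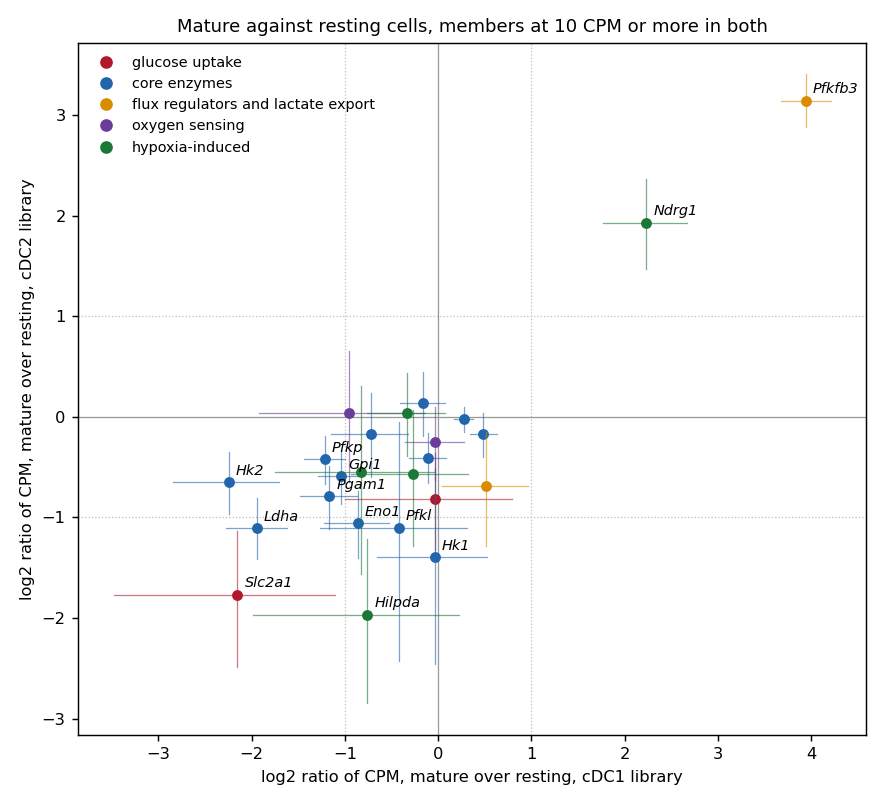
log2 ratio of CPM in mature over resting cells, cDC1 library on the horizontal and cDC2 library on the vertical axis, for the 24 genes measurable in both. Points are coloured by role, thin bars are exact 95% intervals, dotted lines mark 2-fold, and genes called in at least 1 library are named. Pfkfb3 and Ndrg1 stand alone at the upper right; Slc2a1 and Ldha lie past the 2-fold lines at the lower left.

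The enolase step showed a change of isozyme. Eno1 was called lower in mature cells of the cDC2 library (in the cDC1 library it was 1.82-fold lower, 1.44 to 2.34, short of the threshold), while the genes for the neuronal and muscle enolases, Eno2 and Eno3, which belong to the list of other isozymes, were higher in both libraries. Eno3 was at 5.26 CPM in resting and 309 in mature cDC1 cells (ratio 58.7, 48.2 to 71.9), with UMIs in 118 of 2173 and 59 of 78 cells. In the cDC2 library it was at 5.38 and 216 CPM (40.2, 31.1 to 52.1), with UMIs in 76 of 1412 and 39 of 59 cells. Eno2 went from 1.2 to 33.4 CPM and from 3.25 to 32.8. Of all UMIs of these 3 genes, Eno1 held 95.1% in resting and 16.7% in mature cDC1 cells, and 96.2% and 29.5% in cDC2 cells. The sum of the 3 was higher in mature cells, at 411 against 131 CPM and at 353 against 225.

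**Figure D3:**
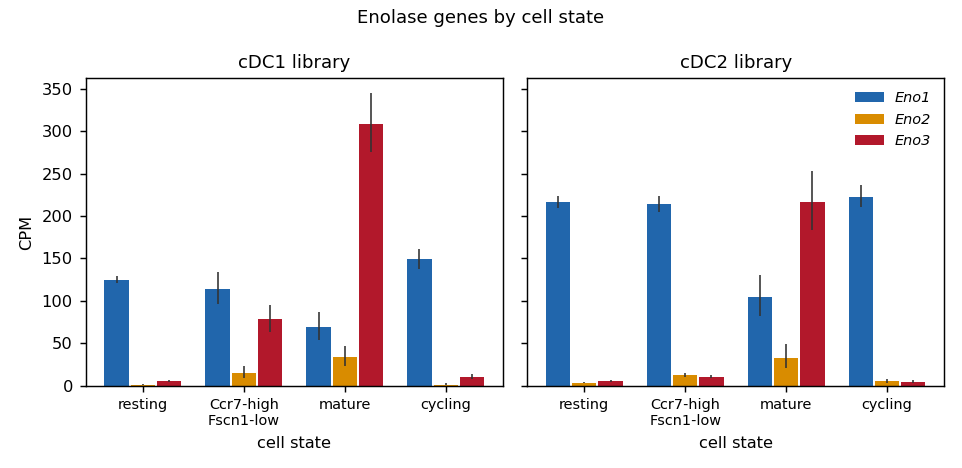
CPM of Eno1, Eno2 and Eno3 in 4 cell states of each library, with exact 95% Poisson intervals as bars. Eno3 is the tallest bar in mature cells of both libraries and is near 0 in resting cells; in Ccr7-high cells it is at 78.1 CPM in the cDC1 and 10.7 in the cDC2 library.

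The list of other isozymes and transporters held 9 measurable genes in each mature comparison. In the cDC1 library 3 were called higher and 3 lower, and in the cDC2 library 2 and 3. Of all genes, 15.2% were called higher and 15.2% lower in the cDC1 library, and 14.1% and 10.1% in the cDC2 library. Aldoc, the brain aldolase, fell to 4 UMIs in mature cells of each library, from 20.4 to 3.92 CPM and from 29.0 to 5.47, and Adpgk, an ADP-dependent glucokinase, fell to 1 and 3 UMIs. Of the citric acid cycle list 2 of 19 were called lower in the cDC1 and 1 of 19 in the cDC2 library, Fh1 (fumarase) in both. Of 23 oxidative phosphorylation genes 1 was called lower in each library, and it was Ndufb5, a subunit of complex I, in both.

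Set directly against each other, mature cells of the 2 sorts still differed in RNA of the glucose transporters. In mature cells 7 of 27 genes were called higher in the cDC2 library and 0 lower, where 12.6% of all genes were called higher and 5.97% lower. Slc2a3 stood at 11.8 and 52.0 CPM (ratio 4.42, 2.26 to 9.28), Slc2a1 at 6.87 and 27.4 (3.98, 1.62 to 11.2), and Hk2 at 26.5 and 127 (4.80, 3.1 to 7.67). The Slc2a3 values rest on 12 and 38 UMIs and the Slc2a1 values on 7 and 20. In mature cDC2 cells 1 cell held 10 of the Slc2a3 UMIs, and 1 cell held 6 of the Slc2a1 UMIs. Of the other 4, Egln1 and Adm had intervals above 1, and Pfkfb4 and Hilpda, on 15 and 14 UMIs in the cDC2 library, had intervals that included 1. The Hilpda log2 ratio, 1.29, was -0.71 with at most 5% mitochondrial UMIs. Pfkfb3, the gene that rose most within the set in cDC1 cells, was at 180 and 223 CPM (ratio 1.24, 0.999 to 1.54).

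Cells high in Ccr7 but low in Fscn1 had the highest Hilpda level of the 4 dendritic states in both libraries. In the cDC1 library 4 of 26 genes were called higher than in resting cells and 1 lower, against 9.72% and 8.96% of all genes. In the cDC2 library 2 of 26 were called higher and 0 lower, against 0.862% and 2.78%. Hilpda and Ndrg1 were called higher in both libraries. By marker genes the gate held unlike cells in the cDC1 and cDC2 libraries. Mature marker genes had a median of 114 UMIs per 10000 in the cDC1 gate (163 in mature, 5.65 in resting cells). In the cDC2 gate the median was 49.5 (189 and 15.3). The cDC1 list was at 9.32 in the cDC1 gate (10.0 and 28.9). The cDC2 list was at 27.2 in the cDC2 gate (3.83 and 36.8). How far this carried differences between the libraries in this state was not tested. The cut on Ccr7 lay where the cDC2 cells showed no valley, with 192 cells within 1.5 times below it and 198 within 1.5 times above.

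Hilpda stood at 13.3 CPM in resting and 51.1 in Ccr7-high cDC1 cells (ratio 3.84, 2.91 to 4.99), and at 74.9 and 154 in cDC2 cells (2.06, 1.91 to 2.22). The cDC1 value rests on 66 UMIs from 18 of 87 cells, 15 of them in 1 cell, and the ratio was 2.99 without that cell. Ndrg1 stood at 10.5 and 38.7 CPM in the cDC1 and at 18.0 and 36.5 in the cDC2 library. The cDC2 ratios lay at the threshold: leaving out the cell with the most UMIs gave 2.00 for Hilpda and 1.96 for Ndrg1. Slc2a3 (12.1 to 50.3 CPM) and Slc16a3 (29.4 to 63.4) were called higher in the cDC1 library alone, and without the cell with the most UMIs of each their ratios were 3.47 and 1.99, the latter short of the threshold. Ldha was called lower in that library, at 298 and 142 CPM, with a log2 ratio between -1.27 and -0.98 under the alternatives.

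Cells of low Fscn1 were split into 4 ranges of Ccr7 (none, above 0 to 4, 4 to 16, and 16 or more UMIs per 10000). Hilpda and Ndrg1 rose stepwise in the cDC2 library. In the cDC1 library their rise lay mostly in the highest range, which held 52 cells. Hilpda went through 56.3, 83.7, 118 and 173 CPM in the cDC2 library and through 12, 19.1, 22.9 and 80.6 in the cDC1 library. Mature cells, which also carry Ccr7, had 19.2 and 7.85 CPM, the first of which depends on the Fscn1 gate, as given above. Ndrg1 went through 12.8, 19.8, 27.8 and 43.1 in the cDC2 library and was again high, at 68.4, in mature cells. In the cDC1 library Ndrg1 was at 10.1, 13.2, 12.7 and 55.1 CPM, and at 49.1 in mature cells. Ldha fell with Ccr7 in the cDC1 library (301, 291, 195 and 121 CPM) but was level in the cDC2 library (278, 278, 278 and 261). Median depth lay between 12163 and 13777 UMIs per cell in all 8 ranges.

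**Figure D4:**
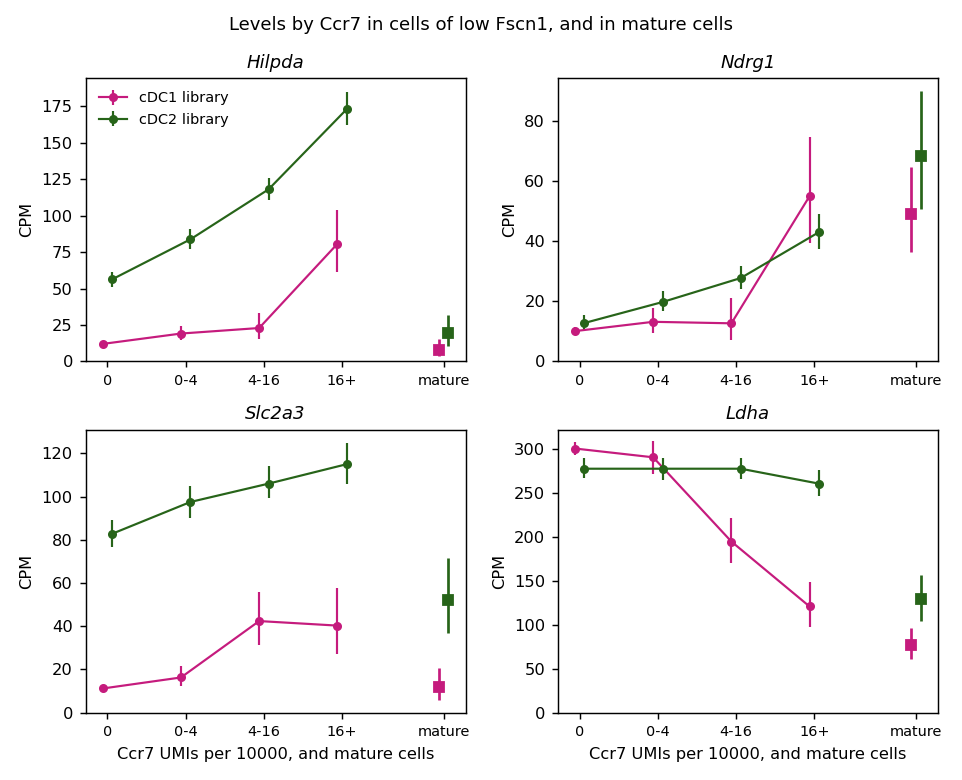
CPM of Hilpda, Ndrg1, Slc2a3 and Ldha in cells of low Fscn1 split by Ccr7 UMIs per 10000 (circles), and in mature cells (squares), with exact 95% Poisson intervals; mature cells are a separate state and are not joined to the lines. Hilpda is highest at 16 or more and low in mature cells gated on Fscn1, which for the cDC2 library did not hold with the summed marker list, while Ndrg1 is high in both.

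Enolase isozymes also differed in this state. Eno3 was at 78.1 CPM in Ccr7-high and 5.26 in resting cDC1 cells (ratio 14.9, 11.4 to 19.2), and at 10.7 and 5.38 in cDC2 cells. Of 11 measurable other hypoxia pathway genes in the cDC1 library, 2 were called higher and 0 lower, against 9.72% and 8.96% of all genes. They were Hmox1 and Vegfa, the latter at 43.3 and 1.13 CPM (ratio 38.3, 24.4 to 61.2). In the cDC2 library 0 of 12 were called higher and 0 lower, against 0.862% and 2.78%. Dissociation and heat-shock genes had medians of 57.9 and 63.5 UMIs per 10000 in Ccr7-high cells, also below resting cells.

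In cycling cells the aldolase step stood apart. Aldoa was the 1 gene of the set called in either library, and it was lower in both: 1 of 25 measurable genes in the cDC1 library, where 0.263% of all genes were called lower and 10.1% higher, and 1 of 26 in the cDC2 library, where 0.896% and 7.71% were. Aldoa stood at 277 CPM in resting and 115 in cycling cDC1 cells, 2.40-fold lower (2.19 to 2.64). In the cDC2 library it stood at 272 and 110 CPM, 2.47-fold lower (2.26 to 2.70). Aldoc was lower with it, from 20.4 to 6.82 CPM and from 29.0 to 10.0, and no other isozyme of that list was called.

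Cycling cells were deeper, with medians of 20564 and 20362 UMIs against 12593 and 12612 in resting cells. Resting cells of 15000 UMIs or more, at medians of 17352 and 17531, had Aldoa at 263 and 277 CPM. Against these the cycling cells were more than 2-fold lower. These medians lay below those of cycling cells, and the part of depth in the result was not tested. Some enzymes that act after aldolase had ratios above 1, none of them reaching 2-fold. Gapdh was at 704 and 1029 CPM in cDC1 cells (ratio 1.46) and at 760 and 1057 in cDC2 cells (1.39), Tpi1, the triose phosphate isomerase, had ratios of 1.57 and 1.33, and Pgk1 of 1.39 and 1.31. The median log2 ratio over all genes was 0.26 and 0.18, so these ratios are smaller relative to the bulk of genes. Before aldolase, Pfkp was at 401 and 385 CPM in resting and cycling cDC1 cells and at 273 and 248 in cDC2 cells.

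The remaining cells of the cDC2 library showed other patterns. Macrophage- and monocyte-like cells differed from resting cells in 2 of 27 genes, 1 higher and 1 lower, where 16.5% of all genes were called higher and 4.68% lower. Hk3, the hexokinase of myeloid cells, was at 1.55 CPM in resting and 14.0 in these cells (ratio 9.07, 5.01 to 16.2), and Slc2a3 was 2.47-fold lower, at 91.8 and 37.2. Hif1a was at 203 CPM there, against 109 in resting cells (ratio 1.86, short of the threshold). These cells had 9 of 22 macrophage and monocyte markers in at least 25% of cells and the cDC2 list at 30 UMIs per 10000, against 36.8 in resting cells. Their dissociation and heat-shock genes had a median of 107 against 77.6, and its part in the result was not tested.

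Cells high in Cd7 and Plac8 had 1 of 26 genes higher and 1 lower, where 4.95% and 4.38% of all genes were called. Ddit4 was at 14.0 CPM in resting and 46.0 in these cells (ratio 3.28, 2.65 to 4.05), and Slc2a1 was 2.07-fold lower (1.74 to 2.49), at 93.2 and 45. The Slc2a1 call was lost at a lower cut for this gate, with a log2 ratio of -0.79, and 223 cells lay within 1.5 times below the cut.

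The 31 neutrophil-like cells had the highest level of the lactate carrier among the states of the cDC2 library. Slc16a3, which encodes the proton-linked lactate carrier MCT4, was at 1127 CPM against 61.8 in resting cells (ratio 18.2, 15.5 to 21.3), from 183 UMIs in 29 of the 31 cells. The 3 such cells of the cDC1 library held 27 UMIs of it. In all, 6 of 27 genes were called higher and 5 lower, where 29.5% and 17.7% of all genes were. Pkm, the last enzyme before pyruvate, was at 610 and 252 CPM, Slc2a3 at 290 and 91.8, and Bnip3l at 253 and 70.7. Hk2 was 2.95-fold lower, at 67.8 and 200, and Hk3 rested on 6 UMIs. The median depth was 2577 UMIs per cell, and of the 5 lower calls those of Pfkfb3 and Egln1, on 2 and 1 UMIs, had intervals that included 1.

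**Figure D5:**
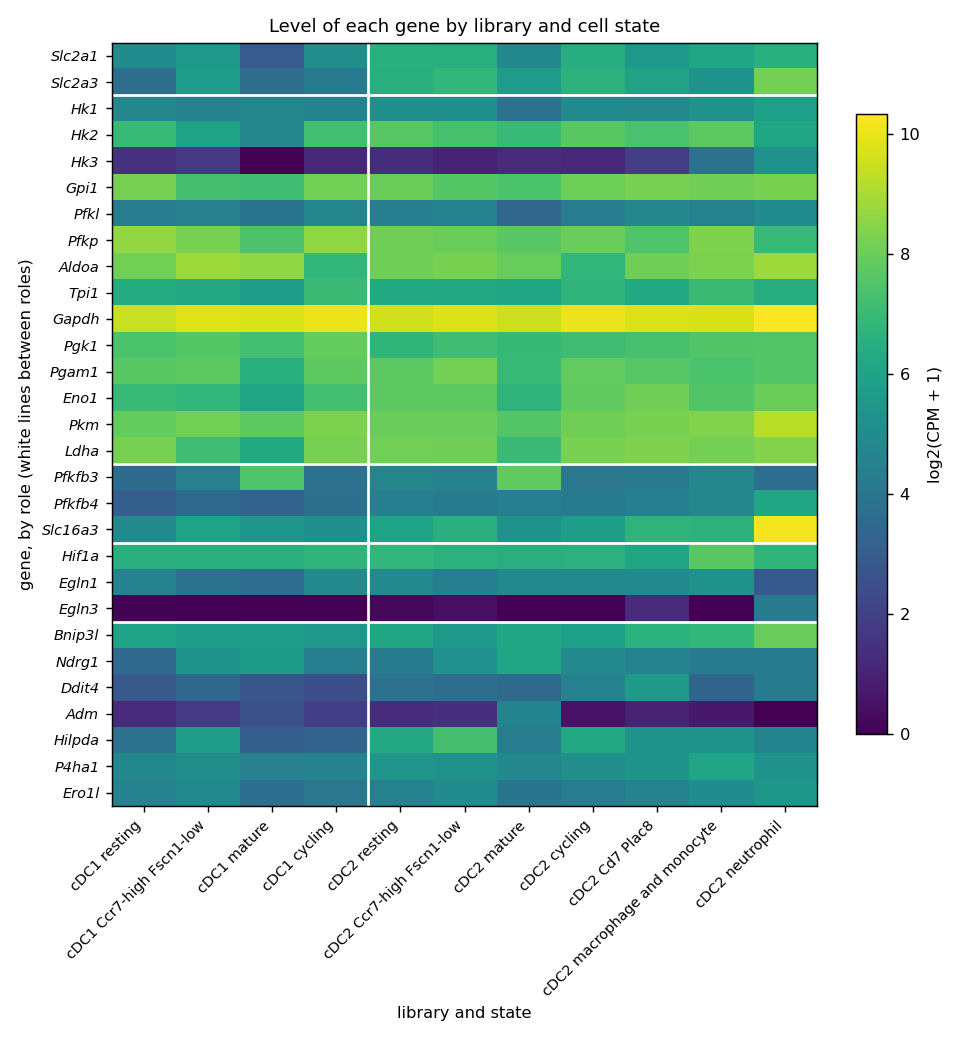
Level of 29 genes in each library and cell state as log2(CPM + 1), with white lines between roles and between libraries; the 3 states with few cells in the cDC1 library are not drawn. Core enzymes form the bright block, Pfkfb3 is bright in mature cells of both libraries, Aldoa is darker in cycling cells, and Slc16a3 is brightest in neutrophil-like cells; Egln3 enters on 3 UMIs there.

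Summed levels over the 4 dendritic states were carried in part by single genes. The sum of the 14 core enzymes was lowest in mature cells of both libraries (2283 and 2251 CPM), also without Gapdh (1429 and 1501). It was highest in cycling cells (3352 and 3206 CPM), but without Gapdh the cDC2 cycling cells, at 2149, lay below the 2202 of resting cells. The sum of the 8 hypoxia-induced genes was 148.6, 221.3, 159 and 124.8 CPM in resting, Ccr7-high, mature and cycling cDC1 cells, and 246.2, 321.8, 242.2 and 239.3 in cDC2 cells. Without Hilpda the cDC2 sums were 171.3, 167.5, 223 and 162.8, so that mature and not Ccr7-high cells were highest of these 4 states. Cells high in Cd7 and Plac8, which are not among the 4, had 233.4 CPM (216.3 to 251.5), near the 223 (190.1 to 260) of mature cells. In the cDC1 library the sums without Hilpda were 135.3, 170.2, 151.1 and 116, with Ccr7-high cells still highest of the 4. The Gapdh and Eno1 values are uncertain, because 104 other annotated genes carry a nearly identical copy of the Gapdh 3′ end and 1 (Eno1b) of that of Eno1. The Tpi1, Pfkp and Gapdh genes overlap exons of Spsb2, Pitrm1 and Iffo1 on the opposite strand. Spsb2, Pitrm1 and Iffo1 hold 447, 261 and 243 UMIs in the cDC1 and 494, 322 and 207 in the cDC2 library. The sources used do not say whether counting used strand.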

How the data were processed

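Cells sorted from lung as XCR1+ or CD172a+ were profiled with the 10x Chromium v3.1 kit, per the labels' protocols, as 1 library each. Each matrix holds, as deposited by the authors, unnormalized UMI counts by gene and barcode. Per the submitters' processing notes these come from Cell Ranger 3.2 on mm10, with Seurat named without a role, while per the file headers the software version is 3.0.2. Neither the annotation nor the choice of barcodes is stated there.

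Barcodes under 500 genes, under 1000 UMIs or over 10% mitochondrial UMIs were removed (365 and 210). Because cells are not replicates, UMIs were summed over the cells of a library or state and divided by their summed total. Ratios were called at 2-fold among genes at 10 CPM or more on 1 side, against a floor of 3 counts where 1 side was 0. Sorts and states were compared this way with no test, with python 3.11.15, numpy 2.4.6, scipy 1.17.1 and pandas 2.3.3, and the calculation was tested on simulated data. No doublet caller was run, so doublets stayed in; 5 and 8 cells had over 40000 UMIs.

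Gates were cuts on summed marker UMIs per 10000 UMIs, read from the marker distributions, with later gates overriding earlier ones: Cd7 and Plac8 list 20, Ccr7 8, cycling 8, Fscn1 4, macrophage 40 or monocyte 30, neutrophil 50, B cell or T and NK cell 20, other lineages 10. Mature cells were to be gated on a summed list, but Ccl22 was broad and the sum had no valley, so Fscn1 alone was used and the list, at 70 without Ccl22, became an alternative. All genes of the set were described, those under 10 CPM throughout by range, and of each pathway list at most the 2 largest ratios in each direction were named. Coordinates are GENCODE vM21 on GRCm38 (mm10); promoters are RefSeq's. Copies were matches of at least 95% identity to the last 400 bases of a gene's transcripts. The genes and lists were chosen with earlier results of these data known. The Ccr7-high, Cd7 and Plac8, and neutrophil comparisons and that among mature cells were added after the gate sizes were seen.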

Additional observations from a re-analysis of the deposited data

How the results depend on the processing

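No paired analysis was possible because there is 1 library for each sort and the labels give no shared replicate numbers. Without replicates, and with 59 to 78 mature and 31 neutrophil-like cells, low UMI counts limit what the smaller states show.

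The comparisons were recomputed with at most 5% mitochondrial UMIs, all barcodes, the median ratio of all genes set to 1, the mean of per-cell CPM, a minimum of 20 CPM or none, a 1.5-fold rule, gate cuts 1.5 times higher or lower, and, for the libraries, without non-dendritic cells. Alternatives chosen after seeing the data were the summed mature list, leaving out cells over 40000 UMIs or with shared barcodes, and deep resting cells against cycling cells. Of the recomputed counts of called genes, 234 were within 1.5 times of the reported count and 38 were not. Moved counts of the comparisons added after the gate sizes were seen are not listed here. Under the 1.5-fold rule Eno1 (ratio 1.73), Ndrg1 (1.77) and Pfkfb3 (1.54) were also called higher in the cDC2 library. Among resting cells Eno1 (1.73), Hk2 (1.59) and Ndrg1 (1.72) were also called higher there. The counts that moved under this rule became 1 lower between libraries (Pfkp), 1 lower among resting cells (Pgk1) and 11 lower in mature cells of each library. They became 4 higher and 2 lower in cycling cDC1 cells, 2 higher and 2 lower in cycling cDC2 cells, and 7 higher and 3 lower in macrophage- and monocyte-like cells. In these last cells, 2 were lower with the median ratio at 1, with per-cell means and with no minimum, 0 were higher at 20 CPM and 2 were higher with higher gates. With per-cell means 1 gene was higher in cycling cDC1 cells (Ndrg1), and with no minimum 2 were lower in cycling cDC2 cells.

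Among genes called 2-fold or more, a change of sign occurred for Hilpda between libraries among mature cells, from a log2 ratio of 1.29 to -0.71 at 5% mitochondrial UMIs, and for Eno3 in macrophage- and monocyte-like cells, from 1.11 to -2.27 with higher gates. In both the cause was not tested. The ratios of the 6 genes called between libraries, of Pfkfb3, Ndrg1 and Slc2a1 in mature cells and of Aldoa in cycling cells passed 2-fold under every alternative run, but Ddit4, below 20 CPM in both libraries, was not tested at that minimum. In mature cDC2 cells Ldha passed in 9 of 11, with a highest log2 ratio of -0.86, and Eno1 in 10 of 11, with -0.94. In mature cDC1 cells Gpi1 and Pgam1 passed in 10 of 11, with highest values of -0.99 and -0.91.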
